A study of Mus musculus with 4 samples.

Results

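The 67 genes described here encode histones, most of them the histones of dividing cells. They are the protein-coding genes whose symbol, as the RefSeq table of mouse build GRCm38 writes it, begins with Hist1h, Hist2h, Hist3h or Hist4h or, in the newer naming, with H1f, H2ac, H2bc, H3c or H4c and a number. They make up 67 of 21631 protein-coding genes on the autosomes and X, with 10 genes for the linker histone H1, 17 for H2A, 16 for H2B, 12 for H3 and 12 for H4. On chromosome 13 lie 53 of them and on chromosome 3 another 10, while H1f0, H1f7, H1f8 and H1f10 stand alone on chromosomes 15 and 6. The lone genes enter through their symbols, and H1f0 and H1f10 are known as replacement linker histones, so the rule takes in more than the replication-dependent genes. The histone genes H2bu2, H2aw, H4bc24 and H4f16 have an older symbol that begins with Hist and a current symbol that the rule does not take, and were counted only as an alternative.

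Chromatin accessibility was measured by ATAC-seq, in which a transposase cuts and tags open DNA, in germ cells of female C57BL/6J mouse embryos at E14.5 (counted in embryonic days). The Gata2cKO group (2 samples) and the Gata2WT group (2 samples) came from matings of Gata2flox/+ Prdm1-Cre males to Gata2flox/flox females, and ovaries were dissociated and enriched for germ cells with anti-SSEA1 beads, with about 10000 cells in a library. Prdm1-Cre deletes floxed DNA in cells that have expressed Prdm1, which include the precursors of germ cells and some other embryonic cells. The labels give the cell type as ovarian cells, and the sources used here give neither the alleles of the Gata2WT embryos nor the number of embryos in a library. GATA2 is a zinc finger transcription factor.

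Each genotype has 1 deposited list of peaks that combines its samples, so no value has a replicate error and no difference between genotypes could be tested. Intervals beside shares are 95% Wilson intervals and cover counting error only. The Gata2cKO list held 44139 peaks and the Gata2WT list 49394, over a genome background of 2.01 fragments in the Gata2cKO pool and 2.19 fragments in the Gata2WT pool. At its summit a peak held a median of 19 fragments in each list. Of 10 germ cell marker genes, 9 had a peak at a gene end in the Gata2cKO list and 10 in the Gata2WT list, and of 5 macrophage markers none had one in either. Supporting cell markers had one for 6 of 9 genes in each list, mesenchyme markers for 3 of 5 in the Gata2cKO list and 4 of 5 in the Gata2WT list, and endothelial markers for 3 of 5 in each. These 3 shares are near those of all protein-coding genes, 64.2% in the Gata2cKO list and 65.1% in the Gata2WT list, apart from the mesenchyme share in the Gata2WT list, and so do not tell whether such cells were present. The part of other cell types in the results below was not tested. Gata2 itself had no gene-end peak in the Gata2cKO list and 1 in the Gata2WT list, rated at a −log10 q of 4.27, and the position of the deleted exons was not analysed here. In a pool of cells, fewer open copies of a site and less signal from each copy cannot be told apart.

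Replication-dependent histone genes supply the histones that package new DNA, and they are transcribed mainly in S phase. They are short and mostly without introns, stand in dense clusters with many neighbours transcribed in opposite directions, and give transcripts that end in a stem-loop instead of a poly(A) tail. The clusters gather the coactivator NPAT and the processing machinery into nuclear bodies, and stem-loop binding protein (encoded by Slbp) accompanies the transcripts. Female germ cells at about this stage pass through their last DNA replication before meiosis.

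Values of peaks are those of the authors' peak caller, and numbers of fragments were solved from them. The start regions of 6 genes show the promoters that carried the results, 1 or 2 for each histone type. H2ac15 had the strongest peak of the Gata2cKO list among these genes and H2ac6 that of the Gata2WT list, and H2bc1, known from testis, had one of the weakest. H1f2, H4c3 and H3c6 had the highest −log10 q, in the Gata2cKO list, of the peaks that meet the promoter window of an H1, H4 or H3 gene, among the genes with a window in the RefSeq table; H3c7, with a stronger gene-end peak, has none there. Each sequence is the RefSeq promoter window on GRCm38, from 250 bases before the start site to 50 after it, printed 5′ to 3′ on the gene's strand. The windows are chr13:21753863-21754162 (minus strand) for H2ac15, chr13:23683910-23684209 (minus) for H2ac6, chr13:23934107-23934406 (minus) for H2bc1, chr13:23738557-23738856 (plus) for H1f2, chr13:23698409-23698708 (minus) for H4c3 and chr13:23562336-23562635 (minus) for H3c6. Capitals mark the TATA box TATAAA, the CCAAT box CCAAT, the octamer ATTTGCAT, the H1 box AAACACA and the GATA word AGATAA, each on either strand.
H2ac15: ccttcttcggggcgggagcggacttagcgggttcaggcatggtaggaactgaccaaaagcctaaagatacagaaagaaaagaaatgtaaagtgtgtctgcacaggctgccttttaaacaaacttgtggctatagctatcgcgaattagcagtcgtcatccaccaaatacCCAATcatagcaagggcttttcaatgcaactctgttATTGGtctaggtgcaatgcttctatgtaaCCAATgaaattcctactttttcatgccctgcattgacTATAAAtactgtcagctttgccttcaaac
H2ac6: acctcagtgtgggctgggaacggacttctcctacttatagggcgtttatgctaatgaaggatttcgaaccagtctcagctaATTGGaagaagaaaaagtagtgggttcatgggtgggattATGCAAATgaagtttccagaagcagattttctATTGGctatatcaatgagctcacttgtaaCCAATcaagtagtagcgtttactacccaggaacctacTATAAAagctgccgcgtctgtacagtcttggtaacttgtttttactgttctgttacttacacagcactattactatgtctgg
H2bc1: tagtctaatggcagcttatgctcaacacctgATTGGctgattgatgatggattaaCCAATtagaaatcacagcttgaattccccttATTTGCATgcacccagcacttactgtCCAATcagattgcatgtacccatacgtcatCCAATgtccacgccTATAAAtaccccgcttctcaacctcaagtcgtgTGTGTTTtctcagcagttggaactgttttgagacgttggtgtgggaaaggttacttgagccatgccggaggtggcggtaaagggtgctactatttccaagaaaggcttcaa
H1f2: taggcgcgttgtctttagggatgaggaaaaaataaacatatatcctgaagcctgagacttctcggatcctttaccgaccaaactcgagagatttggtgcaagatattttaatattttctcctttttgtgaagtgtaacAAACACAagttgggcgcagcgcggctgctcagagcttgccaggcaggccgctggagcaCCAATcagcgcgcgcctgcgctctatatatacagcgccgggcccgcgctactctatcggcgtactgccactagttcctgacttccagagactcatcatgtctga
H4c3: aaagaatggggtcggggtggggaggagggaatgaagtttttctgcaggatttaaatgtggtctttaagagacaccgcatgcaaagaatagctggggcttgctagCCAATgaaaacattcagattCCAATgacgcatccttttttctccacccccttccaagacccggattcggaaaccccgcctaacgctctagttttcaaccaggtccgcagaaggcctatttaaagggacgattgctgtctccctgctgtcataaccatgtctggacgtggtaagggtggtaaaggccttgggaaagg
H3c6: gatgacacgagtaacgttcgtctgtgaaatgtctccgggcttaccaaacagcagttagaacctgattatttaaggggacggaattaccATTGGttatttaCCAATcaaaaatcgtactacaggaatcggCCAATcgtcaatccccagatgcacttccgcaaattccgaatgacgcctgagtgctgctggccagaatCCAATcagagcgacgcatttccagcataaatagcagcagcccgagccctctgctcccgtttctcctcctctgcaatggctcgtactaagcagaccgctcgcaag
In the H2ac6 window, the octamer begins at −130 from the start site, a CCAAT box at −69 and TATAAA at −32. TATAAA begins at 21 in the H2ac15 window, past the annotated start, and at −94 in the H2bc1 window. Both places are outside the 20 to 40 bases before the start that are counted below. In the H1f2 window, the H1 box begins at −112 and a CCAAT box at −54. The H4c3 window holds a pair of CCAAT boxes and none of the other words, and the H3c6 window holds CCAAT boxes on both strands.

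Nearly all of these genes had an accessible site at a gene end in both genotypes. A gene-end peak is a peak that comes to 1 kb or less from either end of a gene. In the Gata2cKO list 60 of 67 genes had one (89.6%, 80.0 to 94.8%), beside 64.2% of all protein-coding genes. In the Gata2WT list 61 of 67 had one (91.0%, 81.8 to 95.8%), beside 65.1%. Both lists held a gene-end peak for 60 of the 67 genes, beside 62.8% of protein-coding genes, and neither list held one for 6 genes, H2bc23, H2ac23, H2ac24, H1f6, H1f7 and H1f8, beside 33.6%. No histone gene had one in the Gata2cKO list alone (1.30% of protein-coding genes) and 1 had one in the Gata2WT list alone (2.29%).

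Short genes of other kinds had far fewer peaks. Of protein-coding genes under 1 kb long, the histone genes included, 8.19% had a gene-end peak in the Gata2cKO list and 8.68% in the Gata2WT list. Among the 58 histone genes of this length, 54 had one in the Gata2cKO list (93.1%) and 55 in the Gata2WT list (94.8%). Among the 1382 other genes of this length, 64 had one in the Gata2cKO list (4.63%) and 70 in the Gata2WT list (5.07%). The 1382 include the histone genes H2bu2, H2aw and H4f16, which the rule does not take and which had one in both lists. The peaks often ran the length of the histone gene: 35 of the 58 bodies (60.3%) were covered from end to end in the Gata2cKO list and 32 (55.2%) in the Gata2WT list, against 6 (0.434%) and 12 (0.868%) of the other 1382.

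Because histone genes stand close together, 1 peak often reached several of them, and this raises the count. The distinct histone gene-end peaks numbered 46 in each list, of which 26 reached 1 of the genes, 16 reached 2 and 4 reached 3, in both lists. When each peak was given only to the protein-coding gene nearest to its summit, 43 histone genes kept a peak in the Gata2cKO list (64.2%), beside 57.9% of all protein-coding genes counted in the same way, and 44 in the Gata2WT list (65.7%), beside 58.9%. The share of histone genes was then near the background, and the high share above counts sites that neighbours share. The rule itself sets a ceiling: with 46 distinct peaks, at most 46 of the 67 genes could keep one. The lower share therefore does not show that the genes left without a peak under this rule lack an accessible site.

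The peaks themselves were strong and often had several summits. Of the 46 histone gene-end peaks, 23 in the Gata2cKO list and 20 in the Gata2WT list (43.5%) had more than 1 summit, where 28.8% and 29.8% of all gene-end peaks of these lists did. Their median summit pileup was 75.5 fragments in the Gata2cKO list, where that of all gene-end peaks was 52, and 92.5 fragments in the Gata2WT list, where that of all gene-end peaks was 62. The local background that the peak caller set against them was also high, with a median of 11.9 fragments in the Gata2cKO list, where that of all gene-end peaks was 5.54, and 14.1 fragments in the Gata2WT list, where that of all gene-end peaks was 6.56. The −log10 q, which rates a pileup against that background, had a median of 34.5 over the histone peaks and 29.1 over all gene-end peaks in the Gata2cKO list, and of 44.9 and 35.2 in the Gata2WT list. Their median width was 974 bp in the Gata2cKO list and 917 bp in the Gata2WT list, where all gene-end peaks had 882 bp and 923 bp. Of the 46 peaks, 20 (43.5%) in each list reached 2 or more histone genes, whereas 2064 of 14002 gene-end peaks in the Gata2cKO list (14.7%) and 2089 of 14419 in the Gata2WT list reached 2 or more protein-coding genes.

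Peak strength was read per gene from the strongest gene-end peak, with a gene without a peak ranked lowest. Over the 67 genes the median −log10 q was 41.2 in the Gata2cKO list and 52.9 in the Gata2WT list, and over all protein-coding genes it was 14.7 and 19.0. By type, the median in the Gata2cKO list was 30.0 for H1, 37.7 for H2A, 49.3 for H2B, 40.3 for H3 and 37.6 for H4. In the Gata2WT list it was 38.3 for H1, 52.9 for H2A, 67.0 for H2B, 47.5 for H3 and 45.6 for H4. H2B genes had the highest median in both lists. Over the 6 clustered H1 genes the median was higher, 42.0 in the Gata2cKO list and 62.3 in the Gata2WT list. These values are above those of H2A, H3 and H4, but they depend on H1f1. Its strongest peak in reach, at 44.2 and 63.3, covers H3c1, and the peak at its own start had 15.3 and 21.5. Replacing only that value would put the clustered H1 median below those of H2A, H3 and H4 in both lists. That replacement is one-sided, since H2ac10 and H4c9, among others, also take their value from a peak over a neighbour. Read from the peak that meets the promoter window, the medians of H2A, H3 and H4 were lower. They were 36.5, 32.7 and 32.2 in the Gata2cKO list and 42.0, 32.3 and 38.4 in the Gata2WT list. The rank of the clustered H1 genes thus depends on how peaks are assigned. Genes of different types share peaks, and the ranges of all types overlapped.

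**Figure D1:**
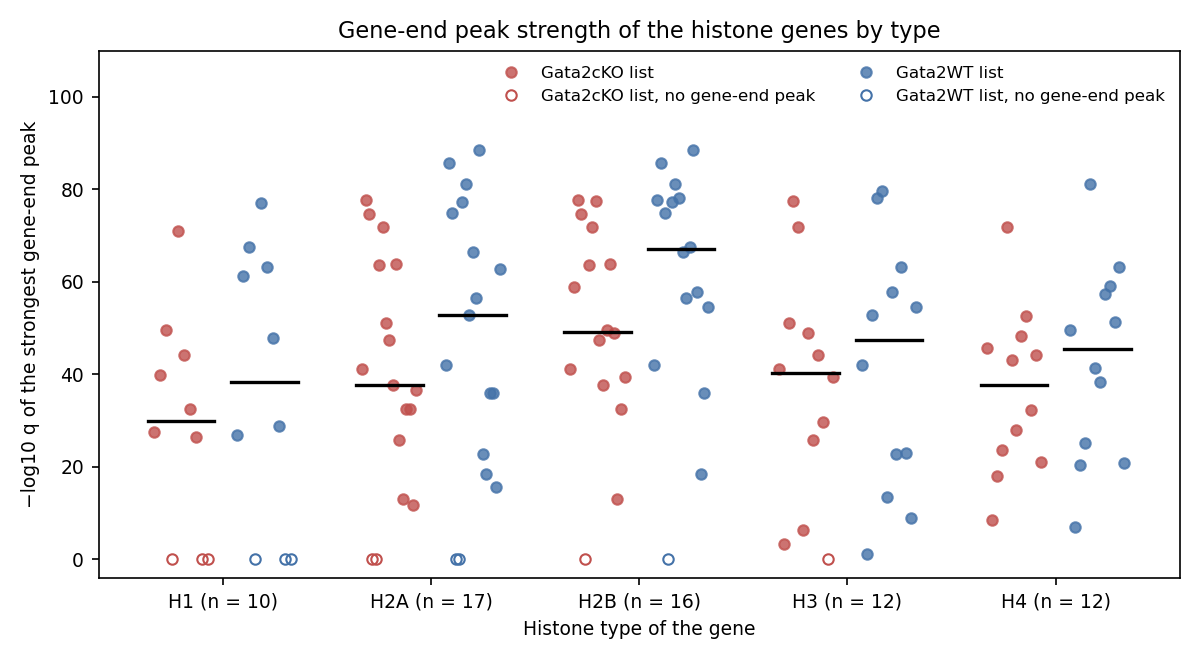
−log10 q of the strongest gene-end peak (vertical axis) of each histone gene, by histone type, with the Gata2cKO list in red at the left of each pair and the Gata2WT list in blue at the right. Open circles at 0 are genes without a gene-end peak and black lines are medians with those genes ranked lowest, which for H2B stand at 49.3 in the Gata2cKO list and 67.0 in the Gata2WT list. The H1 medians, 30.0 and 38.3, include the 4 lone H1 genes.

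Among the H2A and H2B genes, whose products pair as dimers in the nucleosome, 15 of 17 H2A genes (88.2%) and 15 of 16 H2B genes (93.8%) had a gene-end peak in each list, beside 64.2% of all protein-coding genes in the Gata2cKO list and 65.1% in the Gata2WT list. With each peak given to its nearest gene only, 10 of 17 H2A genes kept one in each list, and 7 of 16 H2B genes in the Gata2cKO list and 8 of 16 in the Gata2WT list, beside 57.9% and 58.9% of all protein-coding genes. Some of them stand in 9 pairs with start sites between 164 and 281 bp apart and transcription away from each other. A single peak spanned 8 of the 9 pairs in both lists. The median histone gene-end peak was wider than these distances, at 974 bp in the Gata2cKO list and 917 bp in the Gata2WT list. A peak at 1 start would thus often span both, and pairs of other genes at such distances were not counted. With each peak given to its nearest gene only, such a shared peak counts for 1 gene of the pair. All 9 of the histone gene pairs that start within 1 kb of each other in opposite directions, among the genes with a strand in the promoter table, join an H2A to an H2B gene. The peak over H2ac15 and H2bc15 was the strongest histone peak of the Gata2cKO list, with a −log10 q of 77.6, a pileup of 119 fragments and a width of 1552 bp, and in the Gata2WT list it had a −log10 q of 85.8 and a pileup of 137 fragments. The strongest histone peak of the Gata2WT list covered the start of H2ac6, whose window is printed above, and reached H2bc4. It had a −log10 q of 63.8 in the Gata2cKO list, with 112 fragments, and of 88.5 in the Gata2WT list, with 143 fragments. Over H2ac22 and H2bc22 the −log10 q was 74.7 in the Gata2cKO list and 74.9 in the Gata2WT list. Over H2ac11 and H2bc11, in a peak that also came within reach of H4c9, it was 71.8 in the Gata2cKO list and 81.2 in the Gata2WT list. The peaks over H2ac15 and H2bc15, H2ac22 and H2bc22, and H2ac11 and H2bc11 each spanned both start sites of a pair read in opposite directions. Over H2ac12 and H2bc12 it was 63.6 in the Gata2cKO list and 77.4 in the Gata2WT list, and over H2ac8 and H2bc8 it was 47.4 and 66.5. The pair without a peak in either list was H2bc23 and H2ac23.

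H2bc6 has a pair of start sites in the promoter table, at 23621094 and 23585970 on chromosome 13. The peak at its outer start, the first of these, with a −log10 q of 49.5 in the Gata2cKO list and 67.6 in the Gata2WT list, is the peak of H1f4. At the inner start a second peak had a −log10 q of 25.8 and 72 fragments in the Gata2cKO list, and of 27.0 and 78 fragments in the Gata2WT list. That peak lies inside the gene and was not counted as a gene-end peak. H2bc14, which has no H2A partner start within 1 kb, had a −log10 q of 58.9 in the Gata2cKO list and 77.7 in the Gata2WT list.

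H2ac1 and H2bc1 encode H2A and H2B variants known from the male germ line, and lie apart from the rest of the chromosome 13 cluster, 167 kb past H1f1. A single peak covered both starts, with 27 fragments and a −log10 q of 13.1 in the Gata2cKO list and 40 fragments and a −log10 q of 18.4 in the Gata2WT list. These values were among the lowest of the histone genes in each list, and the local background was also low, at 3.52 fragments in the Gata2cKO pool and 5.67 in the Gata2WT pool. H1f6, the testis linker histone, had no gene-end peak in either list, with the nearest summit 1974 bp from its start in the Gata2cKO list and 2665 bp in the Gata2WT list. For H1f7, known from spermatids, the nearest summit stood at −38780 bp from the start in the Gata2cKO list and at −26996 bp in the Gata2WT list. For H1f8, known from oocytes, it stood at 17885 bp and −30840 bp.

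The other H1 genes, whose products bind linker DNA between nucleosomes, all had gene-end peaks in both lists. They are 7 of 10 H1 genes in each list (70.0%, 39.7 to 89.2%), near the 64.2% and 65.1% of all protein-coding genes. H1f2 had the strongest H1 peak, with a −log10 q of 70.9 and 122 fragments in the Gata2cKO list and of 77.2 and 135 fragments in the Gata2WT list. H1f4 had a −log10 q of 49.5 in the Gata2cKO list and 67.6 in the Gata2WT list, H1f3 had 39.9 and 61.3, and H1f5 had 27.5 and 26.8. For H1f1 the strongest peak in reach, at 44.2 in the Gata2cKO list and 63.3 in the Gata2WT list, covered H3c1 and the start of H4c1, and the peak at its own start had 15.3 and 21.5. For H1f0 the stronger peak stood past the 3′ end, at 32.5 in the Gata2cKO list and 47.8 in the Gata2WT list. In both lists that peak is also a gene-end peak of another protein-coding gene, which is not a histone gene of this set. The peak at the start of H1f0 had 19.6 and 22.0. H1f10 had 26.5 in the Gata2cKO list and 28.8 in the Gata2WT list.

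H3 and H4 form the core of the nucleosome, and 11 of 12 H3 genes in the Gata2cKO list, 12 of 12 in the Gata2WT list, and 12 of 12 H4 genes in both lists had a gene-end peak, beside 64.2% and 65.1% of all protein-coding genes. With each peak given to its nearest gene only, 7 of 12 H3 genes (58.3%) kept one in each list, near the 57.9% and 58.9% of all protein-coding genes, and 12 of 12 H4 genes did. Fewer had a peak at the start. In the Gata2cKO list 8 of 11 H4 promoter windows (72.7%) met a peak, beside 58.8% of the windows of all protein-coding genes. In the Gata2WT list 7 of 11 did (63.6%), beside 59.6%. Of the H3 windows, 8 of 10 met a peak in each list. H3c6, printed above, had a −log10 q of 71.9 and 92 fragments in the Gata2cKO list, and of 79.7 and 98 fragments in the Gata2WT list. H3c7 shared a peak with H2bc9, on whose upstream side the peak lies, at 77.6 in the Gata2cKO list and 78.1 in the Gata2WT list, and the peak at the start of H2bc9 itself had 17.7 and 22.7. H4c3 had 52.5 and 81 fragments in the Gata2cKO list and 59.2 and 90 fragments in the Gata2WT list. The pileup was highest over H4c1 and H3c1 in the Gata2WT list, at 175 fragments, where the Gata2cKO list had 132, and the local background there was 27.0 fragments in the Gata2cKO pool and 33.3 in the Gata2WT pool.

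The genes with the lowest values, by the −log10 q of the strongest gene-end peak of each, were not all low in fragments. H3c11 had the lowest value in both lists, 3.25 in the Gata2cKO list and 1.24 in the Gata2WT list, with summits of 49 and 45 fragments over local backgrounds of 24.4 and 27.3. H3c4 followed in the Gata2cKO list with 6.30 and 46 fragments, and had 13.5 and 70 fragments in the Gata2WT list. H4c12 had 8.60 in the Gata2cKO list and 7.0 in the Gata2WT list, and H2ac19 had 11.8 and 15.7. All of these pileups exceeded the median of 19 fragments over all peaks of their list. The local background at H3c4 was 17.1 fragments in the Gata2cKO pool and 22.0 in the Gata2WT pool, so that H3c11 and H3c4 both stood on a background above the median of the histone peaks.

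The 1 gene whose gene-end peak was in a single list was H3c14 (older symbol Hist2h3c1), on chromosome 3. The Gata2cKO list held no peak within 1 kb of it, and the nearest summit stood at −1424 bp from its start. The Gata2WT list held a peak at chr3:96247238-96247544 (GRCm38), 307 bp wide, with a −log10 q of 9.03 and a fold enrichment of 4.57, 26 fragments over a background of 4.90. Its summit was 678 bp past the start site, just beyond the last base of the gene, and not at the promoter. A missing peak fell short of the authors' threshold and is not shown to be closed chromatin. Of the distinct gene-end peaks, 0 of 46 in the Gata2cKO list had no overlapping peak in the other list, beside 4.51% of all gene-end peaks of that list, and 1 of 46 in the Gata2WT list had none, beside 7.17%. The count of genes with a peak in 1 list was 2 when equal list lengths were compared (H3c14 and H3c11) and 9 when each peak was given to its nearest gene only. With a −log10 q of at least 10 it was 1, but the gene was H3c4 and not H3c14. It was 0 when genes with shared promoter sequence were left out, which removes H3c14 itself.

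The start region of H3c14 is nearly identical to that of another histone gene. Reads from such copies can be dropped or placed at random in alignment, and the sources used here do not say how they were treated. The start regions of H3c14 and its neighbour H3c15, which lie on opposite strands at chr3:96246435-96246734 (plus strand) and chr3:96239078-96239377 (minus strand), are printed for this reason, with capitals on the 231 bases that both hold without a difference.
H3c14: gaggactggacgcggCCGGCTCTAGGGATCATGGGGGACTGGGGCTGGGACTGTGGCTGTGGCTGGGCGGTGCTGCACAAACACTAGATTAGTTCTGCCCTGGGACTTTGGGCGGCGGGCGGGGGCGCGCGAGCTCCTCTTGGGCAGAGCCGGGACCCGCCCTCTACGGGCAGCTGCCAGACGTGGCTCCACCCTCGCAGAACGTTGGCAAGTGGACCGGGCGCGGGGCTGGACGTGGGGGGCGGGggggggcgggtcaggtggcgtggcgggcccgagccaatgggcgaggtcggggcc
H3c15: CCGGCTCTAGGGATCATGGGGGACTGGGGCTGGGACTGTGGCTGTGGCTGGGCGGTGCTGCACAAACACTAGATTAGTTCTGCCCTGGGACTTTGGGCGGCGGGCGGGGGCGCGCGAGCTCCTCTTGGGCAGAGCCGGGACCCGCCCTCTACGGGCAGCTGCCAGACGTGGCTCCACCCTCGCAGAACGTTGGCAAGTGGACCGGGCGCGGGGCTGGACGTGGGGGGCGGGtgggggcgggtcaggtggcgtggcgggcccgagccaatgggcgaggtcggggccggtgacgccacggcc
Over the whole 300 bases the pair was 94.7% identical. H3c15 also had no peak at its start. Its peak, rated at a −log10 q of 29.6 in the Gata2cKO list and 23.1 in the Gata2WT list, had its summit 705 bp past the start in the Gata2cKO list and 735 bp in the Gata2WT list, beyond the last base of the gene.

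Shared sequence of this kind was counted as the share of the 50-base words of a promoter window that also occur in another window not overlapping it. RefSeq windows were found for 62 of the 67 genes, giving 63 windows, and H3c1, H3c7, H4c14, H2bc4 and H2bc21 had none. Such words stood in 11 of the 63 histone windows (17.5%) and in 7.26% of the 32556 other windows. Of these 11 windows, 8 met no peak in the Gata2cKO list and 9 met none in the Gata2WT list. Of the 52 windows without such words, 49 met a peak in each list, and the other 3 belong to H1f6, H1f7 and H1f8. Over all protein-coding genes, 58.8% of windows met a peak in the Gata2cKO list and 59.6% in the Gata2WT list. How often windows of other genes with such words met a peak was not counted. All words of H2bc23, 86.9% of those of H2ac23 and 73.3% of those of H2ac24 recur elsewhere, and these are the 3 clustered genes besides H1f6 with no gene-end peak in either list. H2bc23 and H2ac24 share an unbroken run of 233 bases, and H2ac23 and H2ac24 one of 200. H4c17 and H4c18 share 285 bases, with 94.0% of their words found elsewhere. Their gene-end peaks have summits past the 3′ end, and the peak of H4c18 in the Gata2WT list also enters the gene. They were rated with a −log10 q of 18 in the Gata2cKO list and 20.5 in the Gata2WT list for H4c17, and of 23.7 and 25.1 for H4c18, over the genome background of each pool. H2ac18 and H2ac19, with 67.7% of their words shared, did meet peaks just upstream of their starts, at 36.5 in the Gata2cKO list and 62.7 in the Gata2WT list for H2ac18, and 11.8 and 15.7 for H2ac19. Read placement was not analysed here and its part in these missing peaks was not tested. Without the genes that have such words, 53 of 56 histone genes had a gene-end peak in each list, and they were the same genes. Of all protein-coding genes 62.8% had one in both lists. The 56 include H3c1, H3c7, H4c14, H2bc4 and H2bc21, which have no window and were not checked for shared words.

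**Figure D2:**
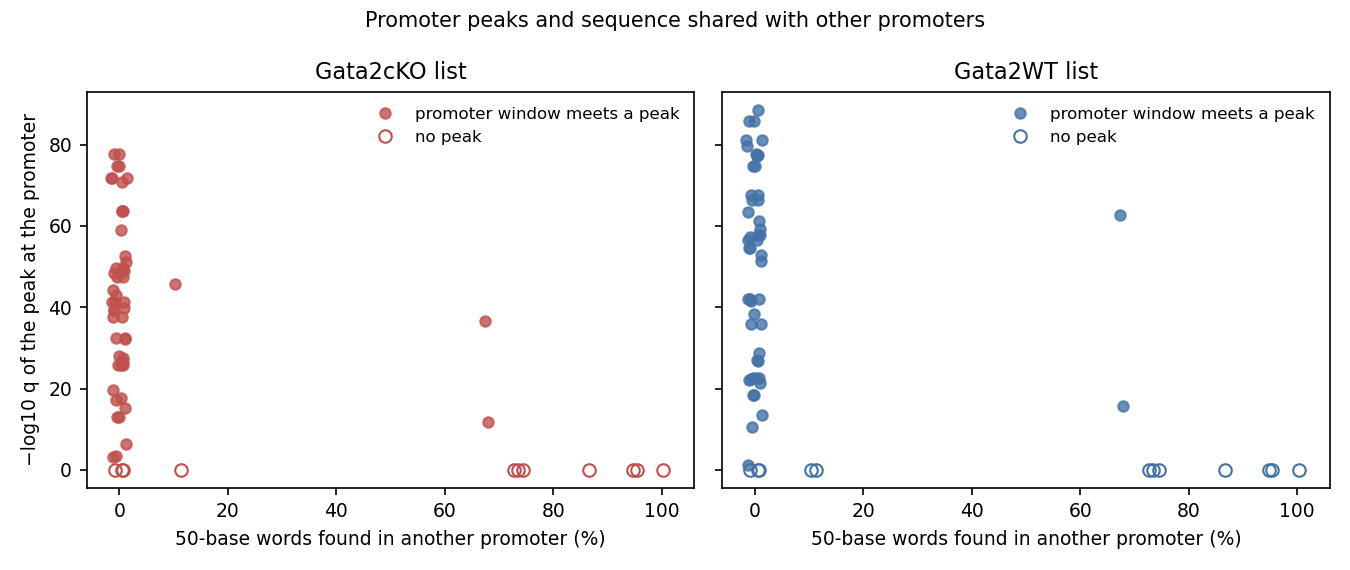
−log10 q of the peak that meets each histone promoter window (vertical axis) against the percentage of its 50-base words found in another promoter window (horizontal axis, points moved sideways by up to 1.5 for display), in the Gata2cKO list (left) and the Gata2WT list (right). Open circles at 0 are windows that meet no peak, and the windows with 73.3% or more of shared words all stand there in both lists.

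At the start sites themselves, 52 of 63 histone windows met a peak in the Gata2cKO list (82.5%, 71.4 to 89.96%) and 51 in the Gata2WT list (81.0%, 69.6 to 88.8%), where 58.8% and 59.6% of the windows of all protein-coding genes did. The difference of 1 is H4c11, whose upstream peak reached into its window in the Gata2cKO list and ended short of it in the Gata2WT list. The histone summits were centred on the start site. The nearest summit lay within 1 kb for 56 windows in the Gata2cKO list and 57 in the Gata2WT list, at a median of −2 bp and 5 bp, and for the other protein-coding genes at a median of 34 bp and 49 bp inside the gene. Within 200 bp of the start stood 80.4% of these histone summits in the Gata2cKO list and 75.4% in the Gata2WT list, and 74.8% and 73.8% of those of other genes. The strongest gene-end peak of the 60 genes with one in both lists kept its summit to within a median of 20.5 bp between the lists, with 45 of 60 within 100 bp, and over 13595 protein-coding genes the median was 31 bp with 78.6% within 100 bp.

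**Figure D3:**
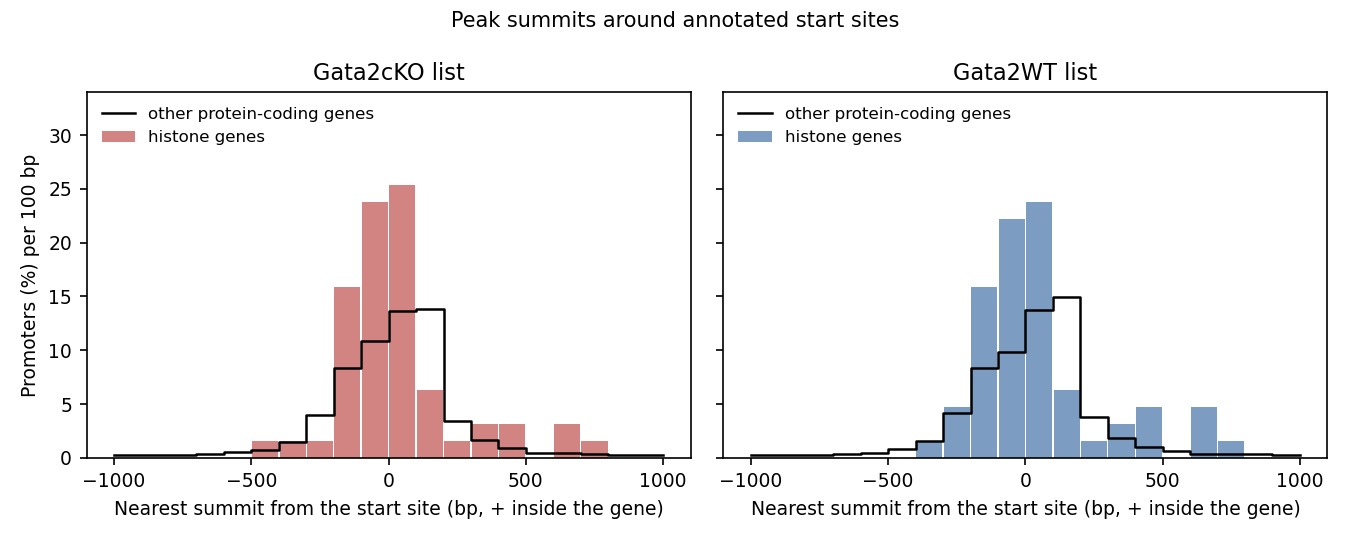
Percentage of promoters (vertical axis) by the distance from the annotated start site to the nearest peak summit, in steps of 100 bp (horizontal axis, positive inside the gene), for histone genes (bars) and other protein-coding genes (line) in the Gata2cKO list (left) and the Gata2WT list (right). The histone summits have medians of −2 bp and 5 bp and the others of 34 bp and 49 bp.

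The histone promoters shared sequence words that the choice of genes did not use. CCAAT, on either strand, stood in 52 of 63 windows (82.5%, 71.4 to 89.96%) and in 37.6% of all 32619 windows of the same length. It was present in all 17 H2A, all 15 H2B and all 10 H3 windows, in 7 of 10 H1 windows and in 3 of 11 H4 windows. TATAAA stood in 34 of 63 (54.0%, 41.8 to 65.7%) and in 13.7% of all windows, and in 8 of 11 H4 and 11 of 17 H2A windows. On the gene's own strand and 20 to 40 bases before the start, TATAAA began in 17.5% of histone windows and 1.86% of the others. The octamer ATTTGCAT, known as the OCT1 site of human H2B genes (OCT1 is encoded by Pou2f1), stood in 13 of 63 (20.6%, 12.5 to 32.2%), 6 of them H2A and 7 of them H2B, and in 1.75% of all windows. The H1 box AAACACA stood in 9 of 63 (14.3%), 5 of them among the 10 H1 windows, and in 7.22% of all windows. The GATA word AGATAA stood in 11 of 63 (17.5%, 10.0 to 28.6%) and in 11.2% of all windows, an interval that includes the background. By type it stood in 4 of 10 H3 windows (40.0%, 16.8 to 68.7%), 4 of 15 H2B and 3 of 17 H2A windows, and in none of the 10 H1 and 11 H4 windows. Some windows overlap, since paired H2A and H2B genes start close together, so a word can be counted for both genes of a pair, and different words may overlap in part. Among the 6 genes with no gene-end peak in either list, 5 windows held CCAAT and none held TATAAA. A match is a match of letters and does not show binding.

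The clusters fall into blocks that each genotype marked with the same number of peaks. On chromosome 13, the block from H2bc13 to H2ac24 holds 17 of the genes in 118 kb and had 12 peaks in each list, 11 of them at ends of these genes. The block from H2ac12 to H2bc11 holds 5 genes in 8.54 kb with 3 peaks, and the block from H4c8 to H1f1 holds 29 genes in 233 kb with 25 peaks, 21 at ends of these genes. On chromosome 3, the block from H2ac21 to H2bc18 holds 10 genes in 50.3 kb and had 8 peaks in each list, 7 at ends of these genes. The equal count there hides a difference, since a pair of peaks at H4c14 in the Gata2cKO list (−log10 q of 5.51 and 21.2) was a single peak of 1458 bp in the Gata2WT list (20.8), and the peak of H3c14 was in the Gata2WT list alone. The widest histone peaks on chromosome 13 were 2094 bp over H2bc13, H2ac13 and the start of H3c10 in the Gata2cKO list and 2376 bp over H3c3 and H2bc3 in the Gata2WT list. On chromosome 3 the widest stood over H2ac21, H2ac20 and the start region of H2bc21, 2225 bp in the Gata2cKO list and 2077 bp in the Gata2WT list. The chromosome 3 genes had a median −log10 q of 32.5 in the Gata2cKO list and 35.9 in the Gata2WT list, and the chromosome 13 genes 45.8 and 57.7.

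**Figure D4:**
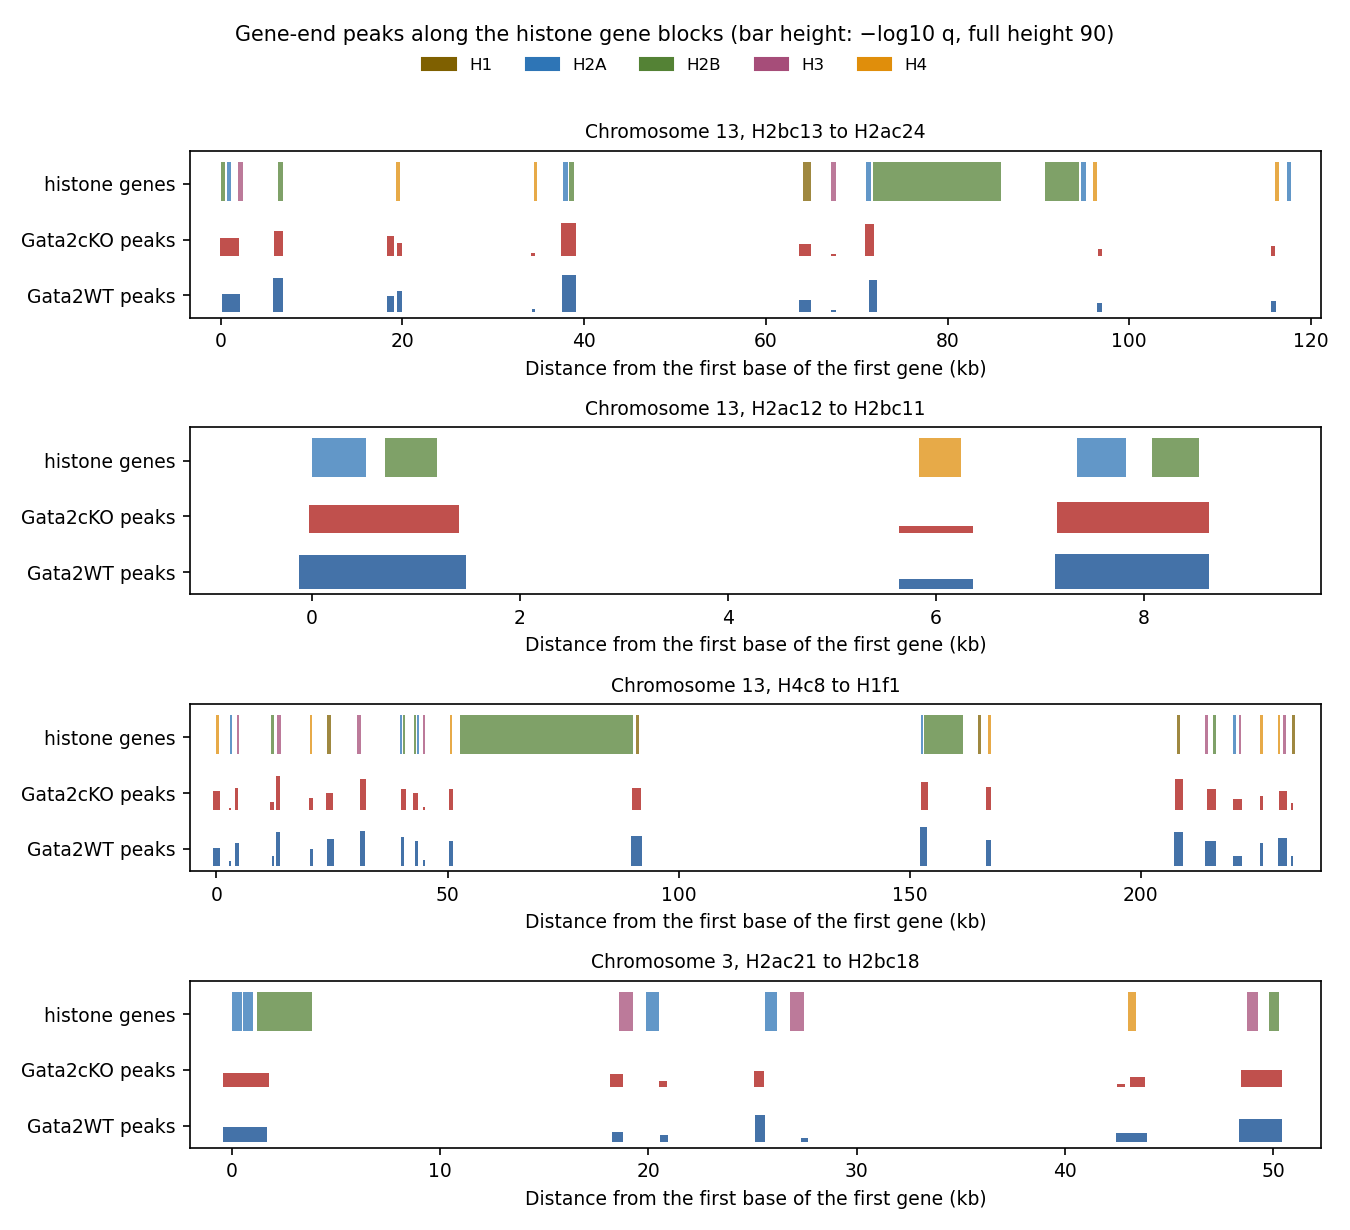
Histone genes (top row of each panel, coloured by type), Gata2cKO gene-end peaks (middle row) and Gata2WT gene-end peaks (bottom row) along the 4 blocks with 5 or more genes, by distance in kb from the first gene, with bar height giving −log10 q up to 90 and narrow or weak bars drawn at a least size. Each panel holds the same number of gene-end peaks in both lists, from 3 to 21.

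Other kinds of genes stand inside the chromosome 13 cluster. Of the 51 other protein-coding genes between its first and last histone gene, 7 had a gene-end peak in each list, Zfp184, Pom121l2, Zfp322a, Abt1, Btn1a1, Btn2a2 and Hfe. These are 7 of the 15 that are not vomeronasal receptor genes (46.7%, 24.8 to 69.9%), an interval that includes the 64.2% and 65.1% of all protein-coding genes. The 15 include H4bc24, a histone gene that the rule does not take, which had no gene-end peak in either list. The 36 vomeronasal receptor genes there, which encode pheromone receptors of sensory neurons, had none in either list, which allows a share of up to 9.64% by the Wilson interval. Most of them are under 1 kb long. The interval includes the share of non-histone genes of that length, 4.63% in the Gata2cKO list and 5.07% in the Gata2WT list. The 1485 kb gap between H2bc11 and H4c8, where all of these vomeronasal receptor genes lie, held 36 peaks in the Gata2cKO list and 37 in the Gata2WT list.

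Genes that act on these clusters also had peaks. Of 25 genes for histone gene transcription and histone mRNA processing, 23 had one at a gene end in both lists, beside 62.8% of protein-coding genes, with a median −log10 q of 63.7 in the Gata2cKO list and 74.4 in the Gata2WT list. Npat had 100 in the Gata2cKO list and 115 in the Gata2WT list, and Slbp had 127 and 147. Nfyc, a subunit of the CCAAT-binding factor, and Gon4l had none in either list. Of 12 replication-independent variants, which are used outside S phase, 9 had a peak at an end in both lists, beside 62.8% of protein-coding genes. The Wilson interval of the 9 of 12 includes that background. H1f7, H1f8 and H1f10 are on this list and also belong to the histone genes counted above. The highest −log10 q among the variants was at H2az2, 104 in the Gata2cKO list and 153 in the Gata2WT list. H3f3b, H1f7 and H1f8 had none.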

How the data were processed

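Peak lists, 1 per genotype with the samples combined, were made by the authors with MACS2 2.2.6, Bowtie2 2.3.5.1, Trimmomatic 0.39, bedtools 2.29.2, Picard 2.23.0 and SAMtools on GRCm38 (mm10), per the submitters' processing notes. The sources used here do not give read shifting, duplicate removal, the treatment of reads with several alignments or how samples were combined. The deposited fold enrichment, a ratio of summit pileup to local background, the deposited −log10 p and −log10 q, the deposited score and the deposited summit offset were not scaled between genotypes, so they were used within a list and are given side by side only. The lowest deposited −log10 p was 3.00.

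Rows with the same interval were merged, keeping the highest summit, which took 52241 Gata2cKO rows to 44139 peaks and 58367 Gata2WT rows to 49394. Pileup and local background were solved from fold and −log10 p, and the pileup was whole within 0.001 for 99.995% of Gata2cKO and 99.996% of Gata2WT peaks. The number of reads was not analysed here. Genes, start sites and sequences came from RefSeq tables of GRCm38, which give 300-base promoter windows. An overlap of 1 bp counted as shared. Python 3.11.15, pandas 2.3.3, numpy 2.4.6, scipy 1.17.1 and matplotlib 3.10.9 were used, and the pileup and overlap steps were tested on simulated data. With 1 list per genotype no test was run.

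The members, gene lists and rules were chosen with earlier results of these data known. Genes were named where their status differed between the lists, where neither list had a peak, and, in each list, for the 5 highest and 5 lowest values, the widest peak of each cluster and the germ line members. Other members were named after their values were seen. The result of 1 marker list is not reported here. Alternatives were the gene-end distance, summit in place of interval, stricter thresholds, equal list lengths, the nearest gene only, other overlap rules, rows not merged, and other sets of members.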

Additional observations from a re-analysis of the deposited data

How the results depend on the processing

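Of 85 counts under other settings, 69 were within 1.5 times the count reported. The number of histone genes with a gene-end peak ran from 43 (nearest gene only) to 64 (2 kb) in the Gata2cKO list, and from 44 to 64 in the Gata2WT list under the same settings. With the nearest gene only, 7 H2B and 7 H3 genes kept a peak in the Gata2cKO list and 8 H2B and 7 H3 genes in the Gata2WT list. The number of genes with a peak in 1 list alone was reported as 1. At 0 bp, where a peak anywhere in the gene also counted, it was 2 (H4c18 and H3c14). It was 0 at 2 kb, 2 by summits within 1 kb (H3c2 and H3c14) and 2 at equal list lengths (H3c11 and H3c14). With the nearest gene only it was 9. It was 0 without genes whose promoter words stand elsewhere, an alternative chosen after seeing the data that removes H3c14. With a −log10 q of at least 10 it was 1, and the gene was H3c4. Histone peaks with no overlapping peak in the other list, reported as 0 in the Gata2cKO list, were 2 at a reciprocal overlap of 50%, 4 by summits within 250 bp and 1 at equal list lengths. In the Gata2WT list, reported as 1, they were 2 at a reciprocal overlap of 50%, 4 by summits within 250 bp and 0 at a −log10 q of at least 10. Apart from what these settings do by construction, the cause was not tested. No paired analysis was possible because each list combines its samples, and for the same reason no sample could be left out. The depth of each sample was not analysed here. A missing peak means a site below the authors' threshold in that pool, and the genotypes cannot be compared in strength without replicates.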
